A study of Mus musculus with 8 samples.

Results

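The genotype by JSH-23 interaction is the JSH-23 effect in *Arid1a* KO tumors minus the JSH-23 effect in WT tumors, on the log2 scale of counts scaled to the size of the library. It is positive where JSH-23 raised a gene more, or lowered it less, in *Arid1a* KO than in WT tumors, and negative in the opposite case. Its members are the genes that averaged 10 CPM (counts per 1000000 of the library size, TMM-scaled) or more over the 8 samples and whose 2 samples differed by at most 25% of the lower one in every group. Of 39089 genes in the tables, 13921 passed the filter on low counts and were tested, 9194 of these reached 10 CPM, and 8908 also met the agreement rule and are the members.

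RNA-seq was performed on epithelial cells sorted as EpCAM+ CD45- from subcutaneous tumors of Myc-CaP cells, which derive from a mouse prostate cancer. The cells had been given a control vector (labelled EV, called WT here) or a vector with a guide RNA to *Arid1a* (called *Arid1a* KO), and were inoculated into male FVB mice that were 6 weeks old. From day 16, JSH-23 dissolved in DMSO and diluted in corn oil, or corn oil as vehicle, was given by gavage daily for 2 weeks. Each combination of genotype and treatment had 2 samples, which gives 4 groups. All 4 share the same parental line, host strain and sort, and neither the number of *Arid1a* KO clones nor the assignment of tumors to samples is given in the sources used here. The p-values therefore measure the spread between these samples, which may be technical.

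NF-κB dimers that contain p65 are held in the cytoplasm by inhibitors of the IκB family until the IKK complex marks these for degradation, and p65 then enters the nucleus and activates genes of chemokines, cytokines and survival factors. JSH-23 blocks the entry of p65 into the nucleus. ARID1A is a DNA-binding subunit of the SWI/SNF complex, which moves nucleosomes at enhancers and promoters, so that its loss can change where transcription factors act. The gene lists below follow pathways downstream of such factors, among them ATF4 and the integrated stress response, AP-1 and the immediate early genes, SREBP2 and sterol synthesis, and the cell cycle.

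Total counts ranged from 16401581 to 21972231 per sample, and the fitted biological coefficient of variation (BCV) was 1.61%. Counts of the 2 samples of a group differed by more than sampling noise, with chi-square values of 1.46 to 1.57 per degree of freedom. The TMM scaling factors were 0.957 and 0.949 in the JSH-23 samples of *Arid1a* KO tumors and 1.00 to 1.03 in the other 6 samples. *Arid1a*, the targeted gene, was at 156 and 161 CPM in the vehicle samples and 144 and 155 CPM in the JSH-23 samples of WT tumors, against 103 and 106 and then 93.8 and 95.9 CPM in *Arid1a* KO tumors. The groups of the 2 genotypes did not overlap, and its interaction was -0.05 (standard error 0.052, adjusted p = 0.439). *Epcam*, the sort marker, had 0 to 4 counts in every sample and *Cdh1* and *Krt18* were under 1 CPM, whereas *Krt8* was at 32.8 to 113 CPM. *Ptprc*, which encodes CD45, was at 0.558 CPM or less, and the 5 markers of all leukocytes summed to 0.547 to 2.14 CPM.

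Among the members, 599 were called, that is, had an adjusted p under 0.05 in edgeR's quasi-likelihood test and an interaction of at least 1.5-fold. A more positive JSH-23 effect in *Arid1a* KO tumors was called for 266 of them (2.99% of the members) and a more negative one for 333 (3.74%), where 3.3% and 5.76% of all genes tested were called in these directions and 9.07% in either. By adjusted p alone, 2619 members were positive (29.4% of the members) and 1968 were negative (22.1%), or 51.5% in either direction. Of all genes tested, 20.5% were positive, 17.9% negative and 38.4% either by the same rule. The split depended on the scaling: 44.4% of the called members were positive with TMM and 18.7% with library size as the only scaling, where the median of all members moved from 0.03 to -0.07 and 138 of the positive and none of the negative calls were lost. With limma on log2(TPM + 1), which changes the test and the unit as well, 8.32% were positive and the median was -0.16. The number of calls rests on the small spread: with the BCV set to 0.1 the calls were 159 and 227, and with 0.2 they were 2 and 5. *Prr15l*, at 10.001 CPM with an interaction of -0.19 (standard error 0.18), was just inside the limit on abundance, and *Msantd3*, at 9.97 CPM with -0.31 (standard error 0.18), just outside. *Lrrc57*, with a largest difference of 1.2497-fold between the samples of a group and an interaction of -0.25, was just inside the limit on agreement, and *Slirp*, with 1.2501-fold and 0.26, just outside. A further 286 genes of at least 10 CPM did not agree, and 13 of them were called positive and 34 negative.

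In most called members of either direction the vehicle samples of *Arid1a* KO tumors lay outside the range of the other samples. In the 333 negative members the median JSH-23 effect was -0.70 in *Arid1a* KO and 0.06 in WT tumors, and in the 266 positive members it was 0.66 and -0.07. With vehicle the negative members were higher in *Arid1a* KO than in WT tumors, with a median log2 difference of 0.47, and the positive members were lower, with -0.47, while with JSH-23 the medians were -0.33 and 0.24. Both vehicle samples of *Arid1a* KO tumors lay above the other 6 samples in 211 of the 333 negative members (63.4%, and 19% of all members), and below them in 190 of the 266 positive members (71.4%, and 26.6% of all members). The JSH-23 samples of *Arid1a* KO tumors also stood apart in many called members. They lay above the other 6 samples in 139 of the 266 positive members (52.3%, and 22.9% of all members). In 161 of the 333 negative members they lay below them (48.3%, and 16.4% of all members). These values share the samples that set the interaction and describe its shape.

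The 1.5-fold rule was also used for the JSH-23 effect within a genotype. Over all genes tested it called 16.9% lower and 9.1% higher in *Arid1a* KO tumors (26% in either direction), and 10.2% lower and 5.55% higher in WT tumors (15.8%). Of the 333 negative members, JSH-23 lowered 161 in *Arid1a* KO tumors without a call in WT tumors, lowered 28 in both, and raised 39 in WT tumors without a call in *Arid1a* KO tumors. No call was made in either genotype for 101, 3 were raised in both, and *Cpeb2* was called in opposite directions at 1.5-fold. Of the 266 positive members, JSH-23 raised 148 in *Arid1a* KO tumors without a call in WT tumors, raised 12 in both, and lowered 19 in WT tumors without a call in *Arid1a* KO tumors, while 82 were called in neither and 5 were lowered in both. By edgeR's adjusted p alone, with no limit on the fold, the breakdown was different. Of the negative members 102 then changed in *Arid1a* KO tumors only, 27 in WT tumors only, 89 the same way but more in *Arid1a* KO, 11 the same way but more in WT, and 104 (31.2%) in opposite directions. Of the positive members the corresponding numbers were 73, 20, 80 and 11, and 82 (30.8%) changed in opposite directions.

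**Figure D1:**
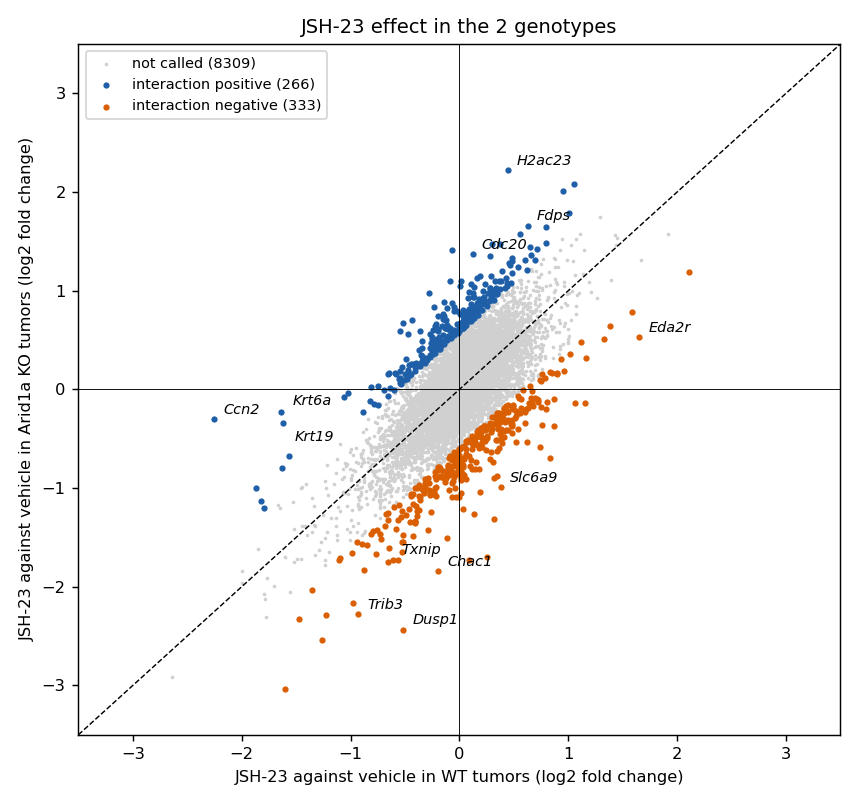
JSH-23 effect (log2 fold change against vehicle) of each of the 8908 members in WT tumors (x axis) and in *Arid1a* KO tumors (y axis), where the dashed line marks equal effects. The 266 positive members lie above the line and the 333 negative members below it, and *Dusp1* and *Chac1* fall mainly along the y axis, *Ccn2* along the x axis.

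*Cpeb2*, which encodes a regulator of mRNA polyadenylation and translation, had 7.30 and 7.94 CPM under vehicle and 14.4 and 12.8 CPM under JSH-23 in WT tumors, whereas *Arid1a* KO tumors had 14.97 and 14.05 CPM under vehicle and 9.51 and 8.39 CPM under JSH-23. JSH-23 changed it by 0.84 in WT and by -0.70 in *Arid1a* KO tumors, and its interaction was -1.53 (standard error 0.17, adjusted p = 6.24e-12). The samples of *Arid1a* KO tumors with vehicle overlapped those of WT tumors with JSH-23, and both were above the remaining 4 samples.

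The interaction differed with abundance. Among 2512 members of 10 to 30 CPM, 95 were called positive and 171 negative, and the median interaction was -0.02. The 4119 members of 30 to 100 CPM had 102 and 131 calls and a median of 0.01, and the 1808 members of 100 to 300 CPM had 42 and 28 calls and a median of 0.07. Of 372 members of 300 to 1000 CPM, 18 were called positive and 3 negative, with a median of 0.21. Of 97 members of 1000 CPM or more, 9 were called positive and none negative, with a median of 0.25. At this level 92 members were positive and 3 negative by edgeR's adjusted p, where the 3 were *Hspa5*, *Jund* and *Tnxb*, named after their values were seen. Cytosolic ribosomal protein genes were 37 of the 97 members of 1000 CPM or more and 36 of the 372 of 300 to 1000 CPM. The members of these 2 classes that were in no gene list, 24 and 216, had medians of 0.35 and 0.19. The median standard error fell from 0.13 in the lowest class to 0.021 in the highest, so smaller differences reach the adjusted p in abundant genes. The medians of the classes relative to all members were -0.05, -0.02, 0.04, 0.18 and 0.22 in rising order, and each kept its sign in every alternative that gave a value for it. Library-size scaling, the fixed BCV values and the test against 1.5-fold could hardly change these relative medians.

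**Figure D2:**
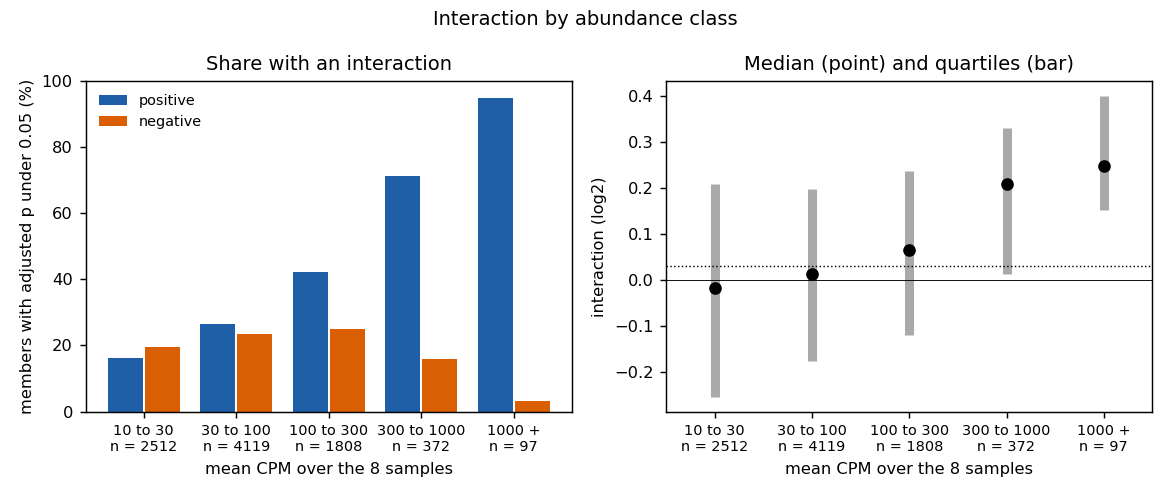
Share of members with a positive or negative interaction at an adjusted p under 0.05 (left, %) and the median and quartiles of the interaction (right, log2; dotted line, median of all members) by mean CPM over the 8 samples. The positive share goes from 16.3% at 10 to 30 CPM to 94.8% at 1000 CPM or more, and the negative share from 19.6% to 3.09%.

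The 9 called members of 1000 CPM or more were *Aldh1a1*, which encodes a retinaldehyde dehydrogenase, the glycolytic enzymes *Pgk1* and *Ldha*, the cytoplasmic actins *Actb* and *Actg1*, the actin-severing *Gsn*, the metallothionein *Mt1*, the immunophilin *Fkbp1a* and the integrin *Itga3*, with interactions between 0.60 (*Actg1*) and 0.97 (*Aldh1a1*), and 3 of them were calls with library size as the only scaling. *Actb* went from 1276 and 1278 CPM with vehicle to 1055 and 1058 CPM with JSH-23 in WT tumors, and from 986 and 975 to 1435 and 1462 CPM in *Arid1a* KO tumors. Its interaction was 0.84 (standard error 0.021, adjusted p = 4.30e-44), and the samples of *Arid1a* KO tumors with JSH-23 were the highest and those with vehicle the lowest. *Anxa1*, an annexin that restrains inflammation, was at 1089 and 1097 CPM in the vehicle samples and 1005 and 987 CPM in the JSH-23 samples of WT tumors, against 699 and 704 and then 1142 and 1144 CPM in *Arid1a* KO tumors. It was the most positive member of 300 to 1000 CPM, at 0.84 (standard error 0.023, adjusted p = 6.48e-43). The 2 *Arid1a* KO samples with vehicle were below all the others. The negative members of that class were *Txnip* (-1.11), *Atf4* (-0.78) and *Ddx5*, an RNA helicase (-0.65). Those 3 were named with their values known.

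A total of 44 gene lists were described, of which 43 had members, and the 13 mitochondrially encoded genes were not analysed here. The lists held 1350 members, 65 called positive and 58 negative, with a median of 0.14, against 201 and 275 calls and a median of 0.01 in the 7558 members of no list. The median was above that of all members in 26 lists and below it in 17. The direction relative to all members was kept in all 23 alternatives for 38 of the lists, and changed in at least 1 for aminoacyl-tRNA synthetases, extracellular matrix, matrix proteases, Wnt signaling and growth factor receptors. The fixed BCV values and the test against 1.5-fold leave the log2 values unchanged or nearly so, and could hardly change a direction. Scaling to library size alone moves all genes by about the same amount, so it cannot change these relative medians, but it changed the calls. The members of lists had 29 positive and 88 negative calls under it, and 44 and 46 with the BCV set to 0.1. No list carries a test, and a gene in several lists is counted in each (36 members). The counts of called genes in a list are to be read against the 2.99% positive and 3.74% negative calls of all members.

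**Figure D3:**
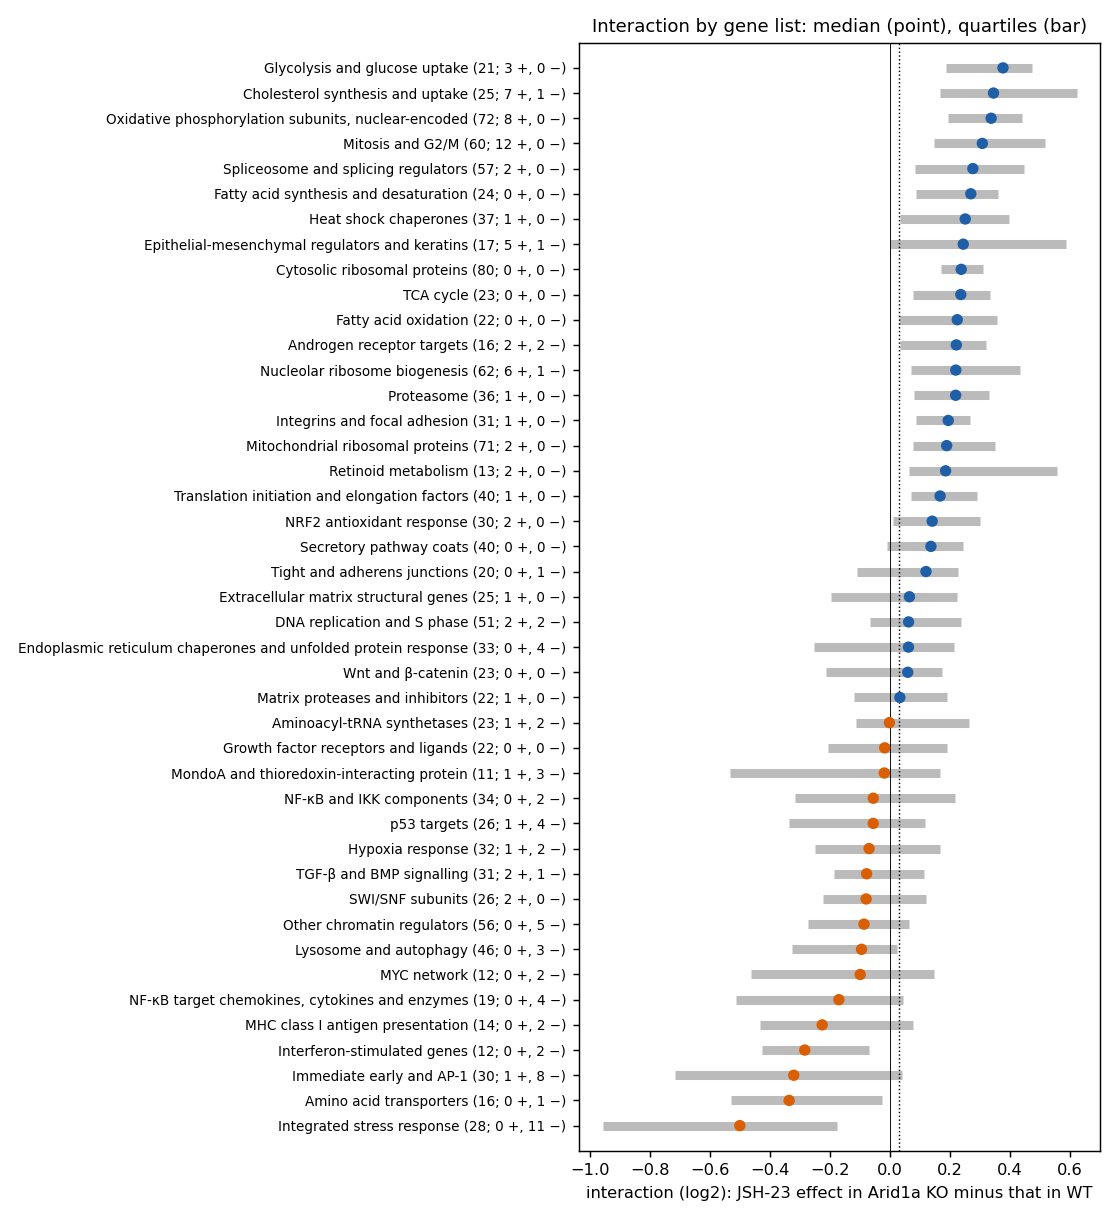
Median (point) and quartiles (bar) of the interaction on the log2 scale in 43 gene lists, with the number of members and of positive (+) and negative (−) calls beside each name; the dotted line is the median of all members, 0.03. The integrated stress response is lowest at -0.50 and glycolysis highest at 0.38.

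The integrated stress response had the lowest median of the lists. In this response kinases that sense amino acid shortage or unfolded protein slow general translation and favor that of ATF4, a transcription factor that induces genes of amino acid supply and, under prolonged stress, of cell death. Of its 32 genes 28 were members, 11 were called negative and none positive, and by edgeR's adjusted p 23 were negative and 2 positive. Its median was -0.50, or -0.53 relative to all members, with a range of -0.57 to -0.35 over the alternatives. The negative calls were 39.3% of the list's members, against 3.74% of all members and 5.76% of all genes tested. The median JSH-23 effect of the list was -0.64 in *Arid1a* KO and -0.17 in WT tumors, and its median difference between *Arid1a* KO and WT tumors was 0.83 with vehicle and 0.28 with JSH-23.

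*Atf4* itself had 246 and 239 CPM under vehicle and 275 and 274 CPM under JSH-23 in WT tumors, whereas *Arid1a* KO tumors had 496 and 488 CPM under vehicle and 321 and 330.0 CPM under JSH-23. Its interaction was -0.78 (standard error 0.034, adjusted p = 7.33e-31). The 2 *Arid1a* KO samples with vehicle were above all the others, and no group overlapped another. *Ddit3*, which encodes the cell death factor CHOP, went from 33.5 and 38.2 CPM with vehicle to 37.4 and 34.3 CPM with JSH-23 in WT tumors, and from 104 and 106 to 48.2 and 50.8 CPM in *Arid1a* KO tumors. The interaction was -1.08 (standard error 0.084, adjusted p = 4.98e-18), and the 4 WT samples overlapped between treatments.

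*Chac1*, which encodes an enzyme that degrades glutathione, was at 29.6 and 31.3 CPM in the vehicle samples and 28.03 and 25.2 CPM in the JSH-23 samples of WT tumors, against 83.3 and 83.2 and then 21.5 and 24.8 CPM in *Arid1a* KO tumors. Its interaction of -1.65 (standard error 0.10, adjusted p = 5.22e-23) was the most negative of the list and remained a call with the BCV set to 0.2. The 2 *Arid1a* KO samples with vehicle stood alone, and the other 6 samples lay between 21.5 and 31.3 CPM. *Trib3*, a pseudokinase that restrains ATF4 and AKT, had 45.4 and 44.4 CPM under vehicle and 22.5 and 24.7 CPM under JSH-23 in WT tumors, whereas *Arid1a* KO tumors had 162 and 164 CPM under vehicle and 35.8 and 31.7 CPM under JSH-23. Its interaction was -1.35 (standard error 0.088, adjusted p = 1.22e-21). JSH-23 lowered *Trib3* in both genotypes, with effects of -2.28 in *Arid1a* KO and -0.93 in WT tumors.

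*Ppp1r15a*, which encodes the phosphatase subunit GADD34 that restores translation, went from 28.4 and 25.5 CPM with vehicle to 33.1 and 34.1 CPM with JSH-23 in WT tumors, and from 82.4 and 84.5 to 45.3 and 44.2 CPM in *Arid1a* KO tumors. The interaction was -1.22 (standard error 0.089, adjusted p = 3.71e-19), and the JSH-23 effect was -0.90 in *Arid1a* KO tumors and 0.32, without a call, in WT tumors. The remaining called members were *Sesn2* (-1.14), an inhibitor of mTORC1, *Nupr1* (-0.96), a stress-induced chromatin protein, *Atf3* (-0.96), a repressor induced by ATF4, *Herpud1* (-0.80), a component of protein degradation at the endoplasmic reticulum, and *Gpt2* (-0.72), the mitochondrial alanine aminotransferase. Some classical ATF4 targets were not called. *Asns*, asparagine synthetase, was at -0.31 (standard error 0.043) and *Psat1*, phosphoserine aminotransferase, at 0.18 (standard error 0.030), and neither met the 1.5-fold rule. These 2 were picked with their values known.

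The amino acid transporters, of which 5 of 16 members are also in the stress list, had a median of -0.34 with 1 negative call and 11 negative and no positive members by edgeR's adjusted p. With library size as the only scaling 6 were called negative. The 1 call with TMM scaling was 6.25% of these members, against 3.74% of all members and 5.76% of all genes tested. *Slc6a9*, the glycine transporter GLYT1, was at 31.8 and 31.4 CPM in the vehicle samples and 41.7 and 40.7 CPM in the JSH-23 samples of WT tumors, against 70.6 and 68.8 and then 35.2 and 34.8 CPM in *Arid1a* KO tumors. Its interaction was -1.37 (standard error 0.087, adjusted p = 3.19e-22). It was higher with JSH-23 in WT tumors and lower in *Arid1a* KO tumors, and the *Arid1a* KO samples with vehicle were the highest. Among the aminoacyl-tRNA synthetases, which charge tRNAs with amino acids, 2 of 23 members were called negative and 1 positive, and the median was -0.00. *Wars* (-0.75) and *Aars* (-0.64) charge tryptophan and alanine and were negative, and the mitochondrial enzyme *Iars2* (0.59) was positive, a call that was lost with library size as the only scaling and with the BCV set to 0.1. *Wars* was at 248 and 256 CPM in the vehicle samples of *Arid1a* KO tumors and between 98.2 and 139 CPM in the other 6 samples.

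Promoter sequences, 250 bases before the transcription start in RefSeq (GRCm38.p6), were matched by symbol for 7272 of the 8908 members. The letters TGATGNAA, a form of the composite element bound by ATF4 with C/EBP factors, were searched on both strands. They occurred in 3.45% of all 32851 promoters, in 1.69% of those of members, in 2.91% of those of the negative and 0.385% of those of the positive called members. In the stress list 6 of 31 promoters (19.4%) and 4 of 13 promoters of called members (30.8%) held them. These 4 are shown because they belong to called genes of the list with the lowest median, with the match in capitals, 5′ to 3′ on the strand of the gene.
Chac1, chr2:119350992-119351241, strand +: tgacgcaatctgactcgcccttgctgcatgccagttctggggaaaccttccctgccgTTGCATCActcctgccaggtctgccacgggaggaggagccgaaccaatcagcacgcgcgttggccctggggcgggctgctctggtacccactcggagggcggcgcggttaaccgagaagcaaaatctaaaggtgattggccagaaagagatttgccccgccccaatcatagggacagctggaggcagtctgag
Nupr1, chr7:126625471-126625720, strand -: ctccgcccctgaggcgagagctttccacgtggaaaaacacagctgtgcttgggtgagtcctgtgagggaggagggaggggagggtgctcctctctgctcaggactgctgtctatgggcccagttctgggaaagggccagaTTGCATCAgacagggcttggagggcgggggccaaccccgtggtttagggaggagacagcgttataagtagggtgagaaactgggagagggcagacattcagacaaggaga
Atf3, chr1:191183334-191183583, strand -: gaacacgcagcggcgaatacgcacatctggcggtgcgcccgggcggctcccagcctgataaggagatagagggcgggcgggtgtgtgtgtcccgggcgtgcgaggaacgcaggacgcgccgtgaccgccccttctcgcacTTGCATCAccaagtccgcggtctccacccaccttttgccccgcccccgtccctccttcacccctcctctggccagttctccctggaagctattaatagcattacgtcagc
Herpud1, chr8:94386179-94386428, strand +: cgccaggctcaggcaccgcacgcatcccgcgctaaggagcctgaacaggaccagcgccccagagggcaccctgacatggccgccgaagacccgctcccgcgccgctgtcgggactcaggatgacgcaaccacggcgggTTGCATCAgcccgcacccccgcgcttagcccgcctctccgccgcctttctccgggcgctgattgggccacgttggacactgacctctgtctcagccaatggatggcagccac
All 4 matches are TTGCATCA, the reverse complement of a form of the element. The match begins 193 bases before the start in *Chac1*, 110 in *Nupr1* and *Atf3* and 112 in *Herpud1*. A match is a description of letters and not evidence of binding.

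Immediate early and AP-1 genes are induced within minutes by growth factors, stress and cytokines, and several encode products that end the same signals. Of 38 genes 30 were members, and 8 were called negative and 1 positive, with a median of -0.32. By edgeR's adjusted p 21 were negative and 6 positive. Calls were 26.7% of the list's members in the negative and 3.33% in the positive direction, against 3.74% and 2.99% of all members. The medians of the JSH-23 effect were -0.73 in *Arid1a* KO and -0.23 in WT tumors.

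*Dusp1*, a phosphatase that inactivates the MAP kinases p38 and JNK, had 24.4 and 22.6 CPM under vehicle and 16.2 and 16.7 CPM under JSH-23 in WT tumors, whereas *Arid1a* KO tumors had 100.3 and 96.1 CPM under vehicle and 19.3 and 17.1 CPM under JSH-23. The interaction was -1.92 (standard error 0.11, adjusted p = 7.47e-24), which remained a call with the BCV set to 0.2. Only the *Arid1a* KO samples with vehicle exceeded 25 CPM. *Zfp36l1* (-0.94) and *Zfp36* (-0.78) encode proteins that bind AU-rich elements and speed the decay of cytokine mRNAs, *Ier2* (-0.90) a nuclear immediate early protein, *Klf4* (-0.81) and *Klf10* (-0.78) zinc finger transcription factors, and *Atf3* was given above. *Myc* went from 17.2 and 16.5 CPM with vehicle to 12.5 and 13.3 CPM with JSH-23 in WT tumors, and from 55.4 and 54.6 to 22.2 and 24.4 CPM in *Arid1a* KO tumors. The interaction was -0.85 (standard error 0.12, adjusted p = 3.27e-08). The highest samples were those of *Arid1a* KO tumors with vehicle, and Myc-CaP cells carry a human *MYC* transgene, so it is uncertain whether some of its reads were counted on the mouse gene. *Jun* itself, at -0.26 (standard error 0.049), did not reach 1.5-fold.

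*Ccn2*, which encodes a matricellular protein and is a target of YAP and TGF-β, was at 53.7 and 51.6 CPM in the vehicle samples and 11.3 and 10.7 CPM in the JSH-23 samples of WT tumors, against 24.7 and 25.6 and then 21.02 and 19.9 CPM in *Arid1a* KO tumors. Its interaction of 1.95 (standard error 0.12, adjusted p = 5.17e-23) was the most positive of all members. The JSH-23 effect on *Ccn2* was -2.25 in WT tumors and -0.30, under 1.5-fold, in *Arid1a* KO tumors. The WT samples were both the highest, with vehicle, and the lowest, with JSH-23, and the 4 *Arid1a* KO samples lay between them.

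The NF-κB lists are those closest to the action of JSH-23. Of 43 classical targets 36 were tested and 19 were members. Of the 19, 4 were called negative and none positive, 9 were negative and 2 positive by edgeR's adjusted p, and the median was -0.17. Relative to all members it was -0.20, with a range of -0.51 to -0.14 over the alternatives. The negative calls were 21.1% of these members, against 3.74% of all members and 5.76% of all genes tested. *Lcn2*, lipocalin 2, which withholds iron from bacteria, had 105 and 104 CPM under vehicle and 86.6 and 87.9 CPM under JSH-23 in WT tumors, whereas *Arid1a* KO tumors had 145 and 144 CPM under vehicle and 59.3 and 62.6 CPM under JSH-23. Its interaction was -0.98 (standard error 0.057, adjusted p = 6.91e-24). JSH-23 took the *Arid1a* KO samples from the highest to the lowest of the 4 groups.

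*Ptgs2*, which encodes the prostaglandin synthase COX-2, went from 48.7 and 49.99 CPM with vehicle to 52.99 and 52.5 CPM with JSH-23 in WT tumors, and from 123 and 122 to 71.5 and 71.4 CPM in *Arid1a* KO tumors. The interaction was -0.87 (standard error 0.068, adjusted p = 5.75e-18), and the *Arid1a* KO samples were above the WT samples under both treatments. *Gch1* (-0.83), the first enzyme of tetrahydrobiopterin synthesis, and *Lif* (-0.66), a cytokine of the IL-6 family, were the other called targets. *Lif* was at 54.03 and 53.2 CPM in the vehicle samples and 32.1 and 31.2 CPM in the JSH-23 samples of WT tumors, against 94.7 and 95.6 and then 36.3 and 34.8 CPM in *Arid1a* KO tumors. JSH-23 lowered it in both genotypes, with effects of -0.76 in WT and -1.42 in *Arid1a* KO tumors. Macrophages express such targets too, and their 6 markers summed to 17.1 and 18.8 CPM in the vehicle samples of *Arid1a* KO tumors and to 5.41 to 11.5 CPM in the other 6 samples. *Cd68* alone made up 16.6 and 18.3 CPM of the former, whereas *Adgre1*, *C1qa* and, but for 1 count, *C1qb* were at 0 there. The neutrophil markers *Ly6g* and *Retnlg* were at 0 in every sample.

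Of the 40 components of the pathway, 34 were members, 2 were called negative and none positive, and 8 were positive and 13 negative by adjusted p in edgeR, with a median of -0.05. The negative calls were 5.88% of these members, against 3.74% of all members and 5.76% of all genes tested. By adjusted p 23.5% were positive and 38.2% negative, against 29.4% and 22.1% of all members. The called genes were the kinases *Ikbke* (-0.64) and *Chuk* (-0.62), which encodes IKKα, and the interaction of *Ikbke*, a gene of 8.11 to 20.5 CPM, was under 1.5-fold without replicate 1 of WT tumors with vehicle (-0.51). Neither was a call with the BCV set to 0.1, and 4 components were called negative with library size as the only scaling. *Nfkbia*, which encodes the inhibitor IκBα and was picked with its values known, had 349 and 351 CPM under vehicle and 521 and 527 CPM under JSH-23 in WT tumors, whereas *Arid1a* KO tumors had 359.8 and 352 CPM under vehicle and 673 and 681 CPM under JSH-23. Both genotypes were higher with JSH-23 without overlap of the samples, and its interaction of 0.35 (standard error 0.029, adjusted p = 2.49e-16) did not reach 1.5-fold. The letters GGG and TTTCC with any 2 bases between them, a form of the κB site searched on both strands, were in 8 of 37 promoters of the components and 2 of 21 of the targets, in none of the 6 promoters of called genes of the 2 lists, and in 1.41% of all promoters.

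Interferon-stimulated genes and the class I antigen presentation genes, which bring peptides to CD8 T cells, also had medians below that of all members. Of 46 interferon-stimulated genes 12 were members, with 2 negative calls, 7 negative and 1 positive by edgeR's adjusted p and a median of -0.28. Relative to all members the median was -0.31, with a range of -0.37 to -0.05 over the alternatives, the value nearest 0 being that for members within 1.1-fold. The called genes were *Irgm1* (-0.75), an interferon-inducible GTPase, and *Parp14* (-0.70), an ADP-ribosyltransferase, which was not a call with the BCV set to 0.1. Of 22 antigen presentation genes 14 were members, with 2 negative calls and a median of -0.23. The negative calls were 16.7% of the interferon-stimulated and 14.3% of the antigen presentation members, against 3.74% of all members. *Tapbp*, which encodes tapasin, the loading factor of class I molecules, went from 113 and 108 CPM with vehicle to 108 and 116 CPM with JSH-23 in WT tumors, and from 145 and 149 to 79.4 and 76.6 CPM in *Arid1a* KO tumors. Its interaction was -0.93 (standard error 0.055, adjusted p = 1.46e-23), and *Arid1a* KO samples were the highest with vehicle and the lowest with JSH-23. *Erap1*, which trims the peptides, was at -0.70.

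**Figure D4:**
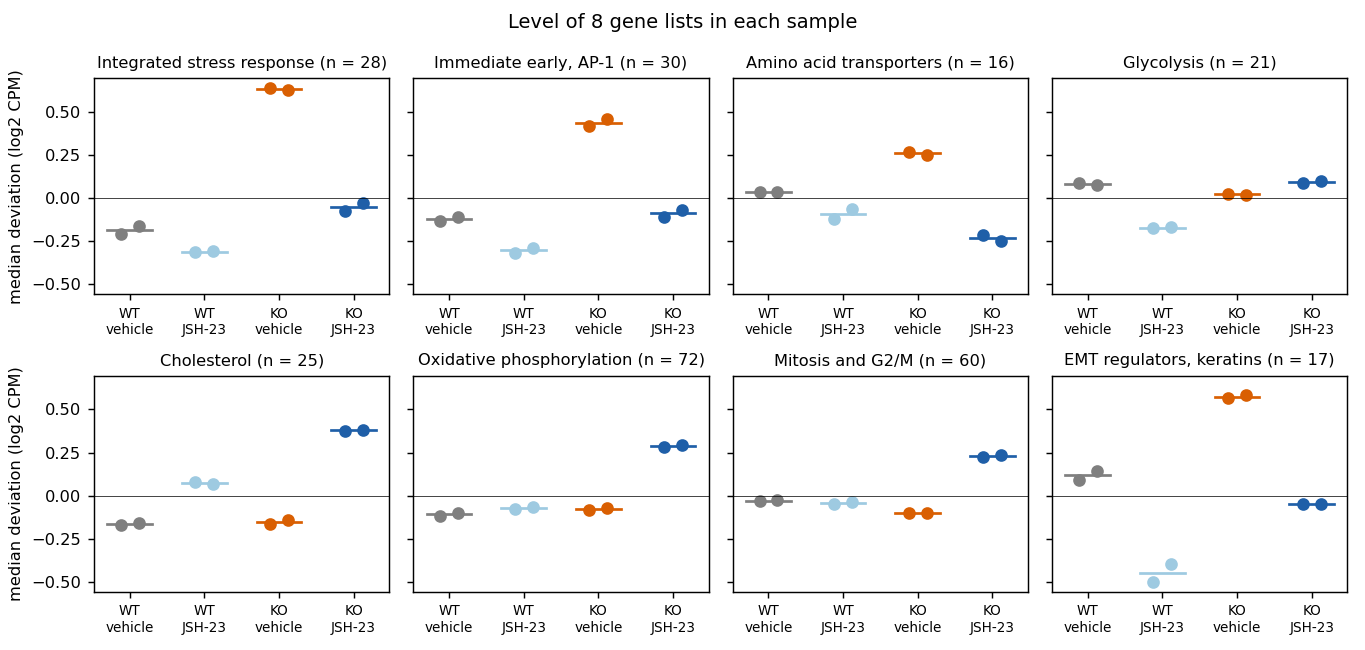
Level of 8 gene lists in each of the 8 samples: median over the list's members of log2 CPM minus the gene's mean over samples (points, samples; lines, group means of 2). The stress, immediate early and transporter lists peak in *Arid1a* KO tumors with vehicle, cholesterol, oxidative phosphorylation and mitosis in *Arid1a* KO tumors with JSH-23.

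The cholesterol genes were among the lists with the highest medians. When sterols in the endoplasmic reticulum fall, SREBP2 is released to the nucleus and induces the enzymes of the mevalonate and sterol pathway. Of 28 genes 25 were members, 7 were called positive (4 with library size as the only scaling) and 1 negative, and the median was 0.35. With the BCV set to 0.1, 5 of the 7 remained calls, and *Lss* and *Nsdhl* did not. The list's median JSH-23 effect was 0.52 in *Arid1a* KO and 0.30 in WT tumors.

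*Fdps*, farnesyl diphosphate synthase, was at 22.6 and 23.4 CPM in the vehicle samples and 35.2 and 35.99 CPM in the JSH-23 samples of WT tumors, against 18.1 and 18.99 and then 59.1 and 58.2 CPM in *Arid1a* KO tumors. The interaction was 1.03 (standard error 0.10, adjusted p = 2.69e-13), and JSH-23 raised it in both genotypes, by 0.63 in WT and 1.66 in *Arid1a* KO tumors. The *Arid1a* KO samples were the lowest of the 4 groups with vehicle and the highest with JSH-23. *Idi1* (0.90), *Nsdhl* (0.64) and *Lss* (0.62) encode other enzymes of the pathway and *Stard4* (0.86) a sterol carrier. *Npc1*, which exports cholesterol from lysosomes, was negative at -0.74, with samples of 124 and 127 CPM in WT tumors with JSH-23 and 89.6 to 114 CPM in the other 6. The letters TCACNCCAC, a form of the sterol element, were in 1 of 21 promoters of the list and in 1.05% of all promoters.

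Mitosis genes, which build the spindle, condense chromosomes and drive the exit from division, gave more positive calls than any other list. As a share of the members, 20% were called positive, against 28% of the cholesterol list, 29.4% of the keratin list and 2.99% of all members. All 60 were members, 12 were called positive and none negative, and by edgeR's adjusted p 45 were positive and 2 negative, with a median of 0.31. JSH-23 moved the list by a median of 0.33 in *Arid1a* KO and -0.02 in WT tumors. *Cdc20*, the activator of the anaphase-promoting complex, had 109 and 106 CPM under vehicle and 117 and 117 CPM under JSH-23 in WT tumors, whereas *Arid1a* KO tumors had 49.7 and 48.8 CPM under vehicle and 125 and 129 CPM under JSH-23. Its interaction was 1.249 (standard error 0.058, adjusted p = 2.23e-29). Both *Arid1a* KO samples with vehicle were below 50 CPM and the other 6 were above 106 CPM.

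*Plk1*, a kinase of mitotic entry, went from 55.8 and 53.7 CPM with vehicle to 59.6 and 60.4 CPM with JSH-23 in WT tumors, and from 30.4 and 33.1 to 66.1 and 64.6 CPM in *Arid1a* KO tumors. The interaction was 0.90 (standard error 0.080, adjusted p = 1.63e-15), again with the *Arid1a* KO samples with vehicle below the rest. *Ube2c* (0.86), the ubiquitin-conjugating enzyme of the anaphase-promoting complex, *Aurka* (0.85), *Ccnb1* (0.76), *Cdc25c* (0.73), *Bub1b* (0.69) and *Top2a* (0.63) were positive too. At least the call of *Top2a* was lost with library size as the only scaling. The DNA replication list did not follow: of 51 members 2 were called in each direction and the median was 0.06, with the positive calls lost under library-size scaling alone and with the BCV set to 0.1, although its median JSH-23 effect was -0.45 in *Arid1a* KO and -0.58 in WT tumors. *Ccne2*, the cyclin E2 of the G1/S transition, was at 19.8 and 19.6 CPM in the vehicle samples and 13.9 and 12.8 CPM in the JSH-23 samples of WT tumors, against 49.8 and 49.02 and then 15.4 and 14.4 CPM in *Arid1a* KO tumors. It was the most negative of that list at -1.17 (standard error 0.13, adjusted p = 3.68e-12), with the *Arid1a* KO samples with vehicle alone above 20 CPM.

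CCAAT, the letters bound by the factor NF-Y and common in promoters of mitotic genes, were in 41 of 54 promoters of the list (75.9%), in 8 of 10 of its called members and in 33.8% of all promoters. Among called members the share was 47.7% for positive and 40.1% for negative ones, against 35.2% in members not called. The promoters of *Cdc20*, *Plk1* and *Ube2c* are shown as the called members of the list with the largest interactions, with each match to CCAAT or its reverse complement ATTGG in capitals.
Cdc20, chr4:118437344-118437593, strand -: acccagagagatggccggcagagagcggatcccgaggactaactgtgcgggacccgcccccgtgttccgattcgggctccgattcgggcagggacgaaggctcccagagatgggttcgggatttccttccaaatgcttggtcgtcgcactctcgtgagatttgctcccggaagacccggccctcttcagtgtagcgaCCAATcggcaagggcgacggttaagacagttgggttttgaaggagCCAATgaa
Plk1, chr7:122159185-122159434, strand +: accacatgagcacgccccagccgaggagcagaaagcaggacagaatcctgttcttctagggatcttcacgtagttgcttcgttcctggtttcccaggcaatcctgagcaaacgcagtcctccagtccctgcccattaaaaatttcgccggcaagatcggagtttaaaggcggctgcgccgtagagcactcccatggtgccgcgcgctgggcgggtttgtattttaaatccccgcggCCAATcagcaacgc
Ube2c, chr2:164769679-164769928, strand +: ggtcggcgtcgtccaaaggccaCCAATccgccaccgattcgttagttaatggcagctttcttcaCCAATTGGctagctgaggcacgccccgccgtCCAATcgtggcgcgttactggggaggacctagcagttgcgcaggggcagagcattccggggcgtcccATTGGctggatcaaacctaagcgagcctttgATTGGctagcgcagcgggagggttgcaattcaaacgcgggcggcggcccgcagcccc
There are 2 matches in *Cdc20*, 1 in *Plk1*, whose single match begins 14 bases before the start, and 6 in *Ube2c*.

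**Figure D5:**
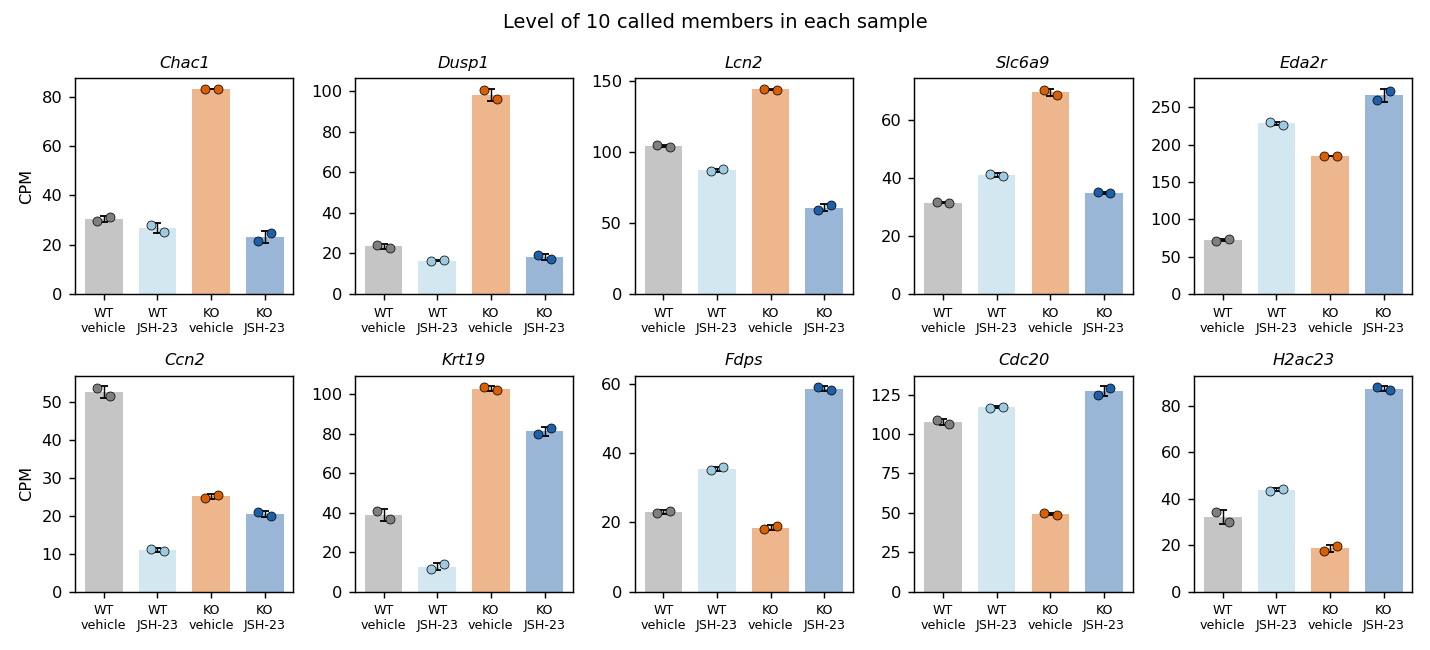
CPM of 10 called members in each of the 8 samples (points), with the group mean (bar) and SD over 2 samples (error bar). *Chac1*, *Dusp1* and *Slc6a9* are highest, and *Fdps*, *Cdc20* and *H2ac23* lowest, in *Arid1a* KO tumors with vehicle, while in *Ccn2* and *Krt19* the larger difference between treatments is within the WT tumors.

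Lists of energy metabolism were positive with few calls. Glycolysis, which turns glucose to pyruvate and lactate, had the highest median of all lists at 0.38, with 3 of 21 members called positive and none negative, and its members were abundant, at a median of 591 CPM. The median relative to members of the same abundance class was 0.17. *Ldha*, lactate dehydrogenase A, had 2933 and 2948 CPM under vehicle and 2501 and 2515 CPM under JSH-23 in WT tumors, whereas *Arid1a* KO tumors had 2516 and 2568 CPM under vehicle and 3398 and 3411 CPM under JSH-23. Its interaction was 0.65 (standard error 0.017, adjusted p = 1.46e-43), and the samples of WT tumors with JSH-23 and of *Arid1a* KO tumors with vehicle, the lowest groups, lay side by side without overlap. *Pdk3* (0.66), a kinase that inhibits pyruvate dehydrogenase, was the third called gene beside *Pgk1*, and none of the 3 was a call with library size as the only scaling. The median JSH-23 effect of the list was 0.05 in *Arid1a* KO and -0.27 in WT tumors.

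Oxidative phosphorylation subunits of the nuclear genome, which form the respiratory chain and ATP synthase, had 72 members, 8 called positive and none negative, with 59 positive and 1 negative by edgeR's adjusted p and a median of 0.34. The median was 0.35 for JSH-23 in *Arid1a* KO tumors and 0.04 in WT tumors. *Uqcr11*, a small subunit of complex III, went from 40.8 and 41.3 CPM with vehicle to 35.2 and 36.5 CPM with JSH-23 in WT tumors, and from 35.8 and 34.2 to 52.1 and 54.5 CPM in *Arid1a* KO tumors. The interaction was 0.80 (standard error 0.089, adjusted p = 8.31e-12), and the *Arid1a* KO samples with JSH-23 were above all the others. The other called subunits were *Ndufa1* (0.68), *Ndufa2* (0.60) and *Ndufc2* (0.59) of complex I, *Uqcrb* (0.65) of complex III, and *Atp5k* (0.69), *Atp5g1* (0.65) and *Atp5g3* (0.60) of ATP synthase. With library size as the only scaling 2 of the 8 were called, and 2 with the BCV set to 0.1. The TCA cycle (median 0.24), fatty acid oxidation (0.23) and fatty acid synthesis (0.27) had no called member among 23, 22 and 24.

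Translation lists were shifted by small amounts in many genes. All 80 cytosolic ribosomal protein genes were members and had interactions from 0.06 to 0.55, and 77 were positive by edgeR's adjusted p, but none reached 1.5-fold and the median was 0.24, or 0.21 relative to all members. They were abundant, and relative to members of their own abundance class the median was 0.03. As 37 of the 97 members of the highest class are such genes, this value compares them in part with themselves. Mitochondrial ribosomal proteins, which were less abundant, had a median of 0.19 and 0.21 relative to their class, with 2 of 71 called positive (1 with library size as the only scaling, and 1 with the BCV set to 0.1). The 2 calls were 2.82% of these members, near the 2.99% of all members. Nucleolar ribosome biogenesis had a median of 0.22 and 6 positive and 1 negative calls among 62 members. These calls became 1 positive and 2 negative with library size as the only scaling, and 1 and 0 with the BCV set to 0.1. *Fbl*, fibrillarin, the methyltransferase of ribosomal RNA, was at 112 and 112 CPM in the vehicle samples and 103 and 99.4 CPM in the JSH-23 samples of WT tumors, against 76.8 and 79.5 and then 111 and 117 CPM in *Arid1a* KO tumors. Its interaction was 0.70 (standard error 0.056, adjusted p = 3.55e-17), and the *Arid1a* KO samples with vehicle were the lowest.

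Spliceosome genes (median 0.28, 57 members, 2 positive calls), heat shock chaperones (0.25, 37 members, 1 positive call), the proteasome (0.22, 36 members, 1 positive call) and translation factors (0.17, 40 members, 1 positive call) had no negative call. The positive calls were 3.51%, 2.70%, 2.78% and 2.50% of the members in this order, near or under the 2.99% of all members. Relative to members of their own abundance class, the median was 0.20 for the spliceosome and 0.20 for the proteasome. It was only 0.06 for the heat shock chaperones and 0.04 for the translation factors. The positive calls of the chaperones, the proteasome and the translation factors were lost with library size as the only scaling, and that of the proteasome also with the BCV set to 0.1. *Sf3b3*, a subunit of the SF3b complex that binds the branch point, had 290.5 and 278 CPM under vehicle and 289 and 286 CPM under JSH-23 in WT tumors, whereas *Arid1a* KO tumors had 150.5 and 153 CPM under vehicle and 322 and 328 CPM under JSH-23. The interaction was 1.08 (standard error 0.037, adjusted p = 1.77e-36). The *Arid1a* KO samples with vehicle were the lowest, and the other 6 samples were at 278 CPM or more.

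Keratins and epithelial-mesenchymal regulators had 17 members of 36 genes, with 5 positive calls (3 with library size as the only scaling), 1 negative call and a median of 0.25. With the BCV set to 0.1, 4 of the 5 remained positive calls, and *Krt8* did not. In 4 of the 5 called keratins the JSH-23 effect was larger in WT tumors. *Krt19*, a keratin of simple epithelia, went from 41.03 and 36.7 CPM with vehicle to 11.6 and 13.9 CPM with JSH-23 in WT tumors, and from 104 and 102 to 79.7 and 82.9 CPM in *Arid1a* KO tumors. Its interaction was 1.28 (standard error 0.10, adjusted p = 1.01e-18), and the JSH-23 effect was -1.62 in WT tumors and -0.34, under 1.5-fold, in *Arid1a* KO tumors. No group overlapped another, and the *Arid1a* KO samples were above the WT samples throughout.

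*Krt15* (0.87) and *Krt4* (0.69) were lowered in both genotypes and more so in WT tumors, *Krt8* was at 0.59, and *Krt23* (1.18) had a JSH-23 effect of -0.52, without a call, in WT and 0.67 in *Arid1a* KO tumors. *Krt6a*, a keratin of stressed epithelia outside the list, was at 34.7 and 35.8 CPM in the vehicle samples and 11.3 and 11.4 CPM in the JSH-23 samples of WT tumors, against 39.4 and 45.7 and then 37.8 and 35.2 CPM in *Arid1a* KO tumors. Its interaction was 1.41 (standard error 0.11, adjusted p = 5.38e-17), and only the WT samples with JSH-23 stood apart, at 11.3 and 11.4 CPM. Its reads may be shared with a near-identical copy. The 9 epithelial markers summed to 177 and 180 CPM in WT tumors with vehicle, 102 and 104 with JSH-23, 320 and 322 in the vehicle samples of *Arid1a* KO tumors and 255 and 265 with JSH-23. Most of each sum came from *Krt8*, *Krt19* and *Grhl2*, and the first 2 are called genes of this list. *Cldn4* was at 6.75 to 11.3 CPM, and *Epcam*, *Cdh1*, *Krt18*, *Cldn7* and *Esrp1* were under 1 CPM in every sample. A change in the cells sorted and in the level per cell cannot be told apart in bulk samples. *Elf3* (-0.76), an epithelial transcription factor, was the negative call.

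p53 targets, which act in arrest, repair and cell death, held calls in both directions, with 4 negative and 1 positive among 26 members and a median of -0.06. *Eda2r*, a receptor of the TNF family, had 71.4 and 73.7 CPM under vehicle and 229.8 and 227 CPM under JSH-23 in WT tumors, whereas *Arid1a* KO tumors had 184 and 185 CPM under vehicle and 259 and 272 CPM under JSH-23. The JSH-23 effect was 1.65 in WT tumors and 0.53, under 1.5-fold, in *Arid1a* KO tumors, and its interaction was -1.13 (standard error 0.046, adjusted p = 1.80e-32). The WT samples with vehicle were the lowest. *Gadd45a* (-1.002), a stress sensor of growth arrest, was raised in WT tumors, and *Trp53inp1* (-1.22), a p53 cofactor, had a JSH-23 effect of 0.34, without a call, in WT and of -0.88 in *Arid1a* KO tumors. *Psrc1* (0.85), a microtubule protein, was the positive call.

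*Txnip* and the arrestin-domain genes are induced by MondoA when glycolytic intermediates accumulate, and restrain glucose uptake. In that list 3 of 11 members were called negative and 1 positive, with a median of -0.02. *Txnip* (-1.11), *Arrdc4* (-0.88) and *Arrdc3* (-0.85) were the negative calls, whereas *Txn1*, the thioredoxin that TXNIP binds, was positive at 0.63, a call lost with library size as the only scaling. *Arrdc3* went from 173 and 169 CPM with vehicle to 133 and 131 CPM with JSH-23 in WT tumors, and from 264 and 257 to 108 and 116 CPM in *Arid1a* KO tumors. The highest samples were those of *Arid1a* KO tumors with vehicle and the lowest those with JSH-23.

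SWI/SNF subunits had 2 positive calls and no negative call among 26 members and a median of -0.08. The called genes were *Actb*, which is an actin of all cells as well as a subunit of the complex, and *Dpf1* (0.69), a subunit known from neurons. Other chromatin regulators had 5 negative calls and no positive call among 56 members, with a median of -0.09, namely the bromodomain protein *Brd3* (-0.66), the remodeler *Chd7* (-0.64), the demethylase *Kdm6b* (-0.63), the methyltransferase *Kmt2c* (-0.63) and the deacetylase *Hdac4* (-0.60). With the BCV set to 0.1, 2 of the 5 remained calls. Androgen receptor targets had 2 positive and 2 negative calls among 16 members, among them *Hoxb13* (0.68), a homeobox factor of the prostate, the kinase *Camkk2* (-0.81) and the transporter *Abcc4* (-0.70). Neither positive call held with library size as the only scaling.

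Some members with the largest interactions lie outside these lists. *H2ac23*, a histone H2A gene of the cluster on chromosome 13, was at 34.2 and 30.1 CPM in the vehicle samples and 43.3 and 44.3 CPM in the JSH-23 samples of WT tumors, against 17.5 and 19.8 and then 87.99 and 86.7 CPM in *Arid1a* KO tumors. Its interaction was 1.77 (standard error 0.10, adjusted p = 1.10e-25), and the *Arid1a* KO samples were the lowest with vehicle and the highest with JSH-23. Histone genes have near-identical copies, so its counts are uncertain. *Slc20a1*, a phosphate transporter, had 28.8 and 29.00 CPM under vehicle and 36.7 and 35.1 CPM under JSH-23 in WT tumors, whereas *Arid1a* KO tumors had 73.5 and 75.7 CPM under vehicle and 30.6 and 29.4 CPM under JSH-23. The interaction was -1.63 (standard error 0.091, adjusted p = 5.51e-25). As with *Slc6a9*, it was higher with JSH-23 in WT tumors and lower in *Arid1a* KO tumors.

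*Aoc2*, an amine oxidase, went from 11.2 and 9.59 CPM with vehicle to 10.44 and 11.7 CPM with JSH-23 in WT tumors, and from 20.2 and 22.3 to 6.22 and 6.57 CPM in *Arid1a* KO tumors. Its interaction was -1.82 (standard error 0.17, adjusted p = 9.28e-15), and only the *Arid1a* KO samples with vehicle exceeded 20 CPM. *Gm32856*, a predicted gene on chromosome 8, was at 24.4 CPM in both *Arid1a* KO samples with vehicle and between 7.10 and 10.6 CPM in the others, with -1.96 (standard error 0.17, adjusted p = 1.20e-15), the most negative value of all members. With the BCV set to 0.2 the calls that remained were *Ccn2* and *H2ac23* among the positive and *Gm32856*, *Dusp1*, *Aoc2*, *Chac1* and *Slc20a1* among the negative members.

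Stress lists other than the integrated stress response were divided. Chaperones of the endoplasmic reticulum and genes of the unfolded protein response had a median of 0.06, with 4 negative calls and no positive call among 33 members. Beside *Herpud1* these were *Dnajb9* (-0.83), a co-chaperone of BiP, *Atf6* (-0.75), a membrane-bound sensor, and *Sel1l* (-0.74), an adaptor of degradation at the endoplasmic reticulum. *Dnajb9* was at 39.8 and 42.2 CPM in the vehicle samples and 26.7 and 28.1 CPM in the JSH-23 samples of WT tumors, against 60.7 and 58.1 and then 21.3 and 23.1 CPM in *Arid1a* KO tumors. Its interaction was -0.83 (standard error 0.10, adjusted p = 7.42e-11), and the highest samples were those of *Arid1a* KO tumors with vehicle. NRF2 genes, the antioxidant response, had a median of 0.14 and 2 positive calls among 30 members, *Txn1* and *G6pdx* (0.66), the entry enzyme of the pentose phosphate pathway, neither of them a call with library size as the only scaling.

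Retinoid metabolism had 13 members, a median of 0.19 and 2 positive calls, among them *Aldh1a1*, and 1 call in each direction with library size as the only scaling. Integrins and focal adhesion genes had 1 positive call among 31 members, *Itga3*, and a median of 0.19, and junction genes 1 negative call among 20, *Nectin1* (-0.71), with a median of 0.12. Relative to members of their own abundance class, these medians were 0.09 and 0.06. The calls were 3.23% of the integrin and 5% of the junction members, against 2.99% positive and 3.74% negative calls of all members. Matrix proteases and inhibitors had 1 positive call among 22, the collagen cross-linker *Loxl3* (0.65), and a median of 0.03. The MYC network had 2 negative calls among 12, *Myc* and its antagonist *Mxd4* (-0.59), and a median of -0.10. The calls of *Itga3* and *Loxl3* were lost with library size as the only scaling, where 3 junction genes were called negative, and those of *Itga3* and *Mxd4* with the BCV set to 0.1.

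The remaining lists had at most 3 calls each. Wnt signaling (median 0.06, 23 members), growth factor receptors and ligands (-0.02, 22 members) and secretory coats (0.14, 40 members) had none. Hypoxia genes had 1 positive and 2 negative calls among 32 members and a median of -0.07. *Tfrc*, the transferrin receptor, had 116 and 116 CPM under vehicle and 92.7 and 92.4 CPM under JSH-23 in WT tumors, whereas *Arid1a* KO tumors had 333 and 324 CPM under vehicle and 155 and 161 CPM under JSH-23. It was negative at -0.73 (standard error 0.047, adjusted p = 7.79e-22), and the *Arid1a* KO samples were above the WT samples under both treatments. Extracellular matrix genes had 1 positive call among 25, *Sparc* (0.72), and lysosome and autophagy genes 3 negative calls among 46, with medians of 0.07 and -0.09. The negative calls were 6.25% of the hypoxia and 6.52% of the lysosome members, against 3.74% of all members and 5.76% of all genes tested. These shares are near that of all genes tested. TGF-β and BMP signaling had 2 positive calls and 1 negative call among 31 members, with *Id1* (0.81), an inhibitor of differentiation induced by BMP, as the most positive and the receptor *Tgfbr1* (-0.66) as the negative one. With library size as the only scaling the negative calls were 4 for hypoxia and 6 for lysosome and autophagy, 1 positive TGF-β call was left, and Wnt signaling, the growth factor list and extracellular matrix had 1 negative call each. With the BCV set to 0.1 the negative calls were 1, 1 and 0 for hypoxia, lysosome and TGF-β.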

How the data were processed

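Per the study's methods and the labels, the authors demultiplexed the reads with bcl2fastq (2.20), aligned them to the mouse genome (GRCm38/mm10; TopHat2 in the methods, HISAT2 in the submitters' processing notes) and counted reads per gene with HTSeq-count (0.13.5). The deposited tables hold whole-number counts per gene, and TPM values that the authors derived from them. The deposited counts of 8 samples in 4 groups of 2 were used here with TMM scaling in edgeR (4.0.16, R 4.3.3), a filter on low counts (filterByExpr) and the quasi-likelihood test with a mean per group, and the interaction contrast was adjusted by Benjamini-Hochberg over all 13921 genes tested. CPM values are counts per 1000000 of the library size multiplied by its TMM factor, and standard errors are of the log2 interaction. A call needed an adjusted p under 0.05 and at least 1.5-fold. Columns of the authors' own comparisons and the combined TPM table were not used. The fit was tested on simulated data.

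Named genes were the most positive and most negative called member of each list and abundance class, the 5 most positive and 5 most negative of all, every called NF-κB target, the genes at the limits and *Arid1a*, *Epcam* and *Ptprc*. Other genes in the text were added with their values known, and some called members are not reported here. The members, lists and tests were chosen with earlier results of these data known, so that no pattern is independent support. Lists are described by counts and medians without a test. Same-numbered samples of different groups did not deviate together (correlations from -0.02 to 0.03). The differences between the 2 samples of a group were small and in large part counting noise, so these correlations cannot exclude a pairing. Alternatives used DESeq2 (1.42.0), limma (3.58.1) on log2(TPM + 1) and log2(TPM + 0.1), other filters and limits, fixed BCV values and the omission of each sample. Motifs were matched exactly on both strands of RefSeq promoters (GRCm38.p6), each promoter counted as a unit.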

Additional observations from a re-analysis of the deposited data

Results flagged for a closer look

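The JSH-23 effect differed between the genotypes, by the test of the interaction term, and was more positive in *Arid1a* KO tumors in 266 members and more negative in 333. *Cpeb2*, with an interaction of -1.53, was the member that reached 1.5-fold in opposite directions in the 2 genotypes, whereas by edgeR's adjusted p alone 82 of the positive and 104 of the negative members changed in opposite directions. With 2 samples a group, no sample was checked for standing apart from its group.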

How the results depend on the processing

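The 2 samples a group and a very small spread limit these results, since the samples may not be separate tumors and the calls are not independent of the spread assumed. The positive and negative calls, 266 and 333, with library size as the only scaling came to 128 and 556, and they were 64 and 705 with limma on log2(TPM + 1), 71 and 836 on log2(TPM + 0.1), 171 and 162 at a mean of at least 30 CPM, 153 and 146 with samples within 1.1-fold and 61 and 82 in the test against 1.5-fold. With a BCV of 0.1 they were 159 and 227 and with 0.2 they were 2 and 5. The median of all members, 0.031, was -0.072 without TMM scaling, -0.159 and -0.166 on the TPM scales, 0.023 with at least 10 counts in every sample, 0.046 at 30 CPM or more and 0.046 within 1.1-fold, and ranged from 0.030 to 0.047 when a sample was left out. Leaving out a sample gave 275 to 314 positive and 317 to 348 negative calls. DESeq2 gave 270 and 324. The replicate block gave 265 and 333 calls, and the labels give same-numbered samples only a number in common. At a BCV of 0.1 the negative calls of the integrated stress response (11) and the positive calls of mitosis (12) were as many as before, those of oxidative phosphorylation went from 8 to 2 and those of nucleolar ribosome biogenesis from 6 to 1, and the 2 calls among NF-κB components were lost. With library size as the only scaling 138 positive calls were lost and no negative one. Genes of the text among them were *Actg1*, *Atp5g1*, *Atp5g3*, *Fkbp1a*, *G6pdx*, *Gsn*, *Hoxb13*, *Iars2*, *Itga3*, *Krt4*, *Krt8*, *Ldha*, *Loxl3*, *Lss*, *Ndufa1*, *Ndufa2*, *Ndufc2*, *Nsdhl*, *Pdk3*, *Pgk1*, *Top2a*, *Txn1* and *Uqcrb*, with interactions of 0.48 (*Krt8*) to 0.58 (*Krt4*). At least 1 omission of a sample ended the call of 87 positive and 105 negative members. Genes of the text that fell under 1.5-fold were *Chuk* (-0.56), *Hdac4* (-0.58), *Iars2* (0.55), *Ikbke* (-0.51), *Krt8* (0.47), *Mxd4* (-0.51), *Ndufc2* (0.55) and *Tgfbr1* (-0.58) without replicate 1 of WT with vehicle, and *Chd7* (-0.57), *Lss* (0.58) and *Ndufa2* (0.56) without replicate 2. Without replicate 1 of WT with JSH-23 they were *Ndufa2* (0.53), *Ndufc2* (0.58), *Nsdhl* (0.51) and *Tgfbr1* (-0.58), and without replicate 2 *Chd7* (-0.56), *Hdac4* (-0.52), *Iars2* (0.58), *Krt8* (0.58) and *Mxd4* (-0.53). Without replicate 1 of *Arid1a* KO with vehicle they were *Atp5g3* (0.57), *Chuk* (-0.57), *Hdac4* (-0.54), *Hoxb13* (0.57), *Iars2* (0.56), *Mxd4* (-0.51), *Ndufa2* (0.55) and *Ndufc2* (0.56), and without replicate 2 *Ikbke* (-0.58) and *Krt8* (0.58). Without replicate 1 of *Arid1a* KO with JSH-23 they were *Aars* (-0.57), *Ikbke* (-0.52) and *Ndufc2* (0.58), and without replicate 2 *Chd7* (-0.55), *Hdac4* (-0.56), *Krt8* (0.56) and *Mxd4* (-0.49). Over all 5057 recomputed values no called value changed direction, 4360 kept their side of the threshold or their size, 534 moved, 142 became weaker and 21 stronger. Members of 10 to 30 CPM have no value at the limit of 30 CPM. The cause of the changes was not tested.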
